A study of Mus musculus with 2 samples.

Results

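The Dpp4-type interstitial progenitor pole is the end of the adipocyte precursor population in which Dpp4, Wnt2, Bmp7, Anxa3 and Pi16 transcripts are most abundant relative to those of committed preadipocytes. Its members were picked from the counts themselves. Cells with at least 500 detected genes, at most 10% mitochondrial UMIs (unique molecular identifiers, 1 per captured transcript) and fewer than 2 UMIs of the proliferation genes Mki67 and Top2a were kept. Each kept cell was given a score D, the mean log-scaled level of Dpp4, Wnt2, Bmp7, Anxa3 and Pi16 minus that of the committed-cell genes Col15a1, Col4a1, Col4a2, Lpl and Icam1. The members are the cells in the top 20% of D, less those in the top 8% of a second score from Smpd3, Daglb, Gas7 and Adm. They number 1235 of 6670 kept cells, or 18.5% (95% Clopper-Pearson interval 17.6 to 19.5%). The 5435 other kept cells are the comparison group. The committed pole, the 1325 cells in the lowest 20% of D with the same exclusion, is a part of that group and is used as a second comparison.

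Adipose tissue holds stromal progenitors that divide, self-renew and supply new adipocytes. In mouse subcutaneous fat, cells marked by Dpp4 and Pi16 lie in the reticular interstitium, a fluid-filled connective tissue layer around the fat lobules, and can give rise to the Icam1-positive committed preadipocytes that lie among the adipocytes. Such Pi16-positive, Dpp4-positive fibroblasts also occur in the adventitia and interstitium of other organs, and they are known for secreting matrix, Wnt ligands and bone morphogenetic proteins (BMPs).

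The cells came from whole subcutaneous adipose tissue of 12-day-old wild-type mouse pups raised by foster dams whose milk fat had a low or a high n-6 to n-3 polyunsaturated fatty acid ratio. The study asks how this ratio bears on lipid oxidation in neonatal precursors. The tissue was digested with enzymes, precursor cells were sorted by flow cytometry, and 3000 sorted cells per condition were loaded for 10x Genomics 3' V2 capture. The labels call the cells fresh and living, and also describe freezing in serum with DMSO, thawing and dye removal of permeable cells. Each condition is 1 sample, and the number and sex of pups in each are not stated. The deposited matrix holds both samples with barcode suffixes 1 and 2 and nothing links a suffix to a milk, so they are called library 1 and library 2 and no effect of the milk is given.

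Library 1 held 3321 barcodes and 42092816 UMIs, and library 2 held 3584 barcodes and 43491307 UMIs. Members had a median of 13800 UMIs in library 1 and 13206 in library 2, against 12664 and 11780 in other cells, so members were the slightly deeper cells. Their median mitochondrial share was 1.72% in library 1 and 1.73% in library 2, against 1.74% and 1.78% in other cells. A barcode sequence was present in both libraries 17 times, which touched 5 members. Library 1 alone held 20 cells with a haemoglobin share of at least 20%, none of them a member. The members split evenly, with 598 of 3220 kept cells in library 1 (18.6%, 17.2 to 19.96%) and 637 of 3450 in library 2 (18.5%, 17.2 to 19.8%). All intervals cover counting error only. With 1 sample per condition and members chosen on these same counts, no test applies and no p-value is given. A gene is called higher or lower in members when its summed level, in CPM (UMI counts scaled to a common total per class and library), differed by at least 1.5-fold in both libraries, and log2 folds are means of the libraries after adding 1 CPM.

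The 5 progenitor genes are described first, with no weight as findings, because they defined the members. Dpp4, a cell-surface peptidase, stood at 295 and 300 CPM in members of libraries 1 and 2, against 136 and 146 CPM in other cells and 40.5 and 38.2 CPM in the committed pole. Wnt2, a secreted Wnt ligand, stood at 279 and 295 CPM in members, against 103 and 112 CPM in other cells. Bmp7, a BMP ligand, stood at 152 and 158 CPM in members, against 45.2 and 47.7 CPM in other cells. In all 3 the libraries lay close together and members stood above both comparison groups. Anxa3, a calcium-dependent membrane-binding protein, stood at 668 and 618 CPM in members, against 311 and 311 CPM in other cells. Pi16, a peptidase inhibitor, stood at 2836 and 2816 CPM in members, against 1252 and 1264 CPM in other cells. The members therefore sit at one end of a range, since other cells still held each of the 5 transcripts well above the committed pole.

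**Figure D1:**
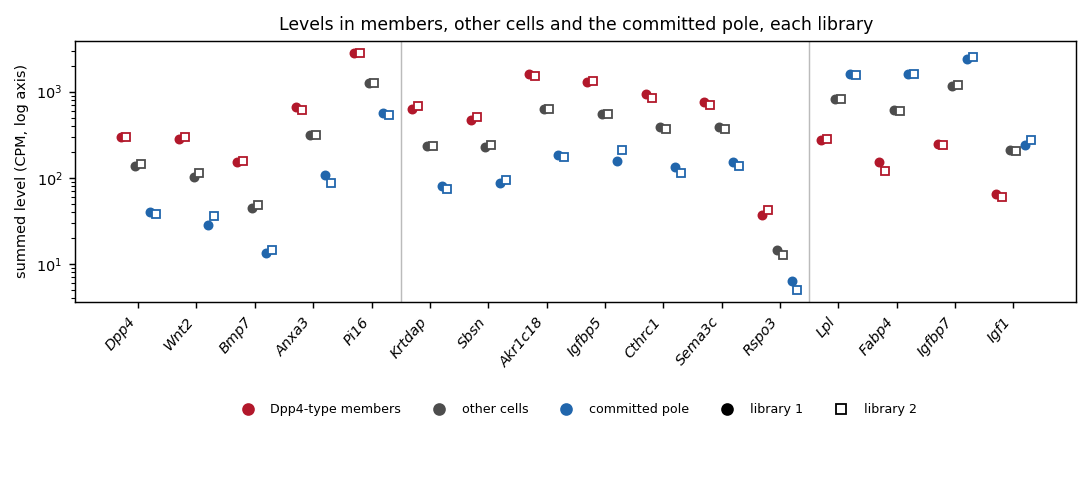
Summed level (CPM, log axis) of 16 genes in Dpp4-type members (red), other cells (grey) and the committed pole (blue), with filled circles for library 1 and open squares for library 2. The first 5 genes are those that defined D. For the middle 7 genes members lie above both other groups, and for the last 4, among them the rule gene Lpl, they lie below.

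When the cells were chosen on a random set of UMIs and the levels read from the remaining UMIs, the log2 folds over other cells were 0.75 for Dpp4, 1.10 for Wnt2, 1.29 for Bmp7, 0.90 for Anxa3 and 1.09 for Pi16. The same genes had folds of 1.07, 1.41, 1.72, 1.04 and 1.17 when choice and reading shared UMIs. The genes subtracted in D were low in members, as the rule required. Col15a1 stood at 22.1 and 21.8 CPM, against 135 and 167 CPM in other cells. Lpl, lipoprotein lipase, stood at 277 and 281 CPM in members, against 830 and 816 CPM in other cells.

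The score D ran between -2.56 and 2.13 over all kept cells, and the line lay at 1.03. The last 50 members inside it had 258 CPM of Dpp4, 268 of Wnt2 and 119 of Bmp7, and the first 50 cells outside it had 236, 235 and 114 CPM. Of the subtracted genes, Icam1 stood at 100.4 CPM inside and 73.5 CPM outside, and Col15a1 at 34.9 CPM inside and 25.03 CPM outside. The cells are neighbours in the score that sorted them, so these values describe the line only.

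How often the 5 markers were detected together is a description, since the rule selected for them. After thinning each cell to 7388 UMIs and leaving out shallower cells, all 5 markers were detected in 54.0% of 537 members in library 1 and 50.7% of 602 in library 2. The shares in other cells were 8.70% and 9.52%, and in the committed pole 0.184% and 0.157%. No thinned member had fewer than 2 of the markers. The label was also set beside the other 13 genes of an 18-gene interstitial progenitor list. Of these 13, 7 were higher in members than in other cells and 13 were higher than in the committed pole. Of all 6641 genes at 10 CPM or more, 1.49% and 8.55% were higher in these comparisons. The list was chosen with earlier results of these data known, and the committed pole for low D. The counts are therefore a description and not an independent check.

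**Figure D2:**
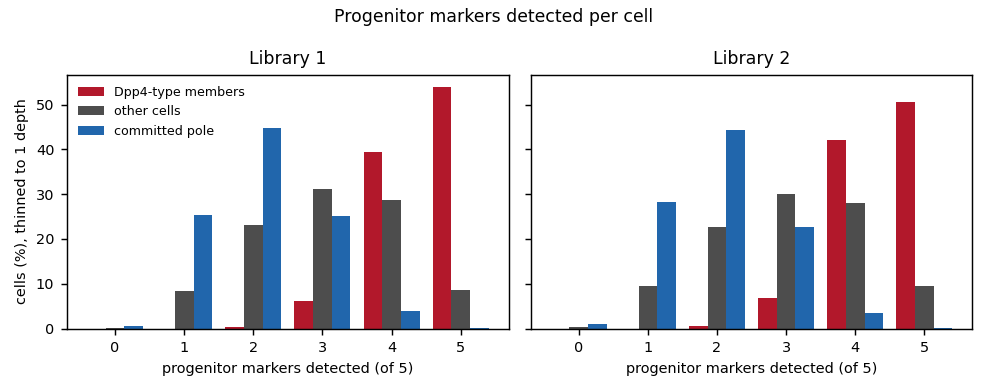
Share of cells (%) with 0 to 5 of the progenitor markers Dpp4, Wnt2, Bmp7, Anxa3 and Pi16 detected after thinning to 7388 UMIs, in members (red), other cells (grey) and the committed pole (blue) of each library. Members peak at 5 markers, other cells at 3 and the committed pole at 2.

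Free RNA can add UMIs to cells that do not express a gene. Cells carrying at least 10 UMIs of an endothelial or macrophage list, which should lack progenitor genes, numbered 40 in library 1 and 36 in library 2, with median depths of 9593.5 and 11431 UMIs. Before thinning, Dpp4 was detected in 97.0% and 98.0% of members, 68.8% and 67.5% of other cells, 36.6% and 32.4% of the committed pole, and 35% and 44.4% of those marker cells. After thinning, the member shares were 89.6% and 90.5%, those of the committed pole were 27.3% and 25.7%, and those of marker cells were 16% of 25 cells (interval 4.54 to 36.1%) and 54.2% of 24 cells (32.8 to 74.4%). Before thinning, Pi16 was detected in 97.5% and 100% of marker cells, and Anxa3 in 82.5% and 86.1%. Akr1c18 was detected in 82.5% and 75% of them, Sema3c in 65% and 75%, and Krtdap in 52.5% and 44.4%. Shares were lower for Wnt2, 50% and 33.3%, Bmp7, 32.5% and 36.1%, and Rspo3, 7.5% and 8.33%. In members Krtdap was detected in 91.3% and 94.5%, and Akr1c18 in 99.8% and 99.2%. The committed pole was chosen for low D, which includes Dpp4, and the marker cells are few, so no level of background is read from these shares. Gabra2, a GABA-A receptor subunit, was detected in 39.1% and 38.8% of members, 12.6% and 12.9% of other cells, 1.48% and 2.94% of the committed pole, and 15% and 5.56% of marker cells. It stood at 47.8 and 47.3 CPM in members, against 14.2 and 15.1 CPM in other cells, and was singled out after its values were seen.

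Markers of other cell types differed in their level in members. Epithelial genes summed to 0.1 CPM in each library in members, all of it Epcam, and the other 5 of 6 genes, Cdh1 and the keratins Krt5, Krt8, Krt14 and Krt18, were at 0. Endothelial genes summed to 27.5 and 25.1 CPM in members, against 110 and 102 CPM in other cells. Macrophage genes summed to 35.1 and 25.2 CPM in members, against 96.4 and 55.3 CPM in other cells. Erythroid genes summed to 840 and 19.0 CPM in members, against 5861 and 123 CPM in other cells, so library 1 was the higher in both. Adipocyte genes, mostly Fabp4, summed to 155 and 123 CPM in members, against 620 and 605 CPM in other cells. Lymphatic endothelial genes summed to 184 and 172 CPM in members, against 153 and 150 CPM in other cells, and 183 and 170 CPM of the members' sum was Pdpn, which fibroblasts also express. Mural genes summed to 144 and 107 CPM in members, against 132 and 105 CPM in other cells. Of 104 cells in the whole set that carried markers of blood, vessel, muscle or nerve sheath cells, 1 was a member, and it carried muscle genes. Among mural genes, Rgs5 and Notch3 were lower in members, while Kcnj8, a potassium channel subunit, was higher at 107 and 72.2 CPM, against 64.0 and 41.0 CPM in other cells.

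Krtdap and Sbsn, both named for the differentiating epidermis in which their secreted products are known, were among the genes most raised in members outside the rule. Krtdap (keratinocyte differentiation-associated protein) stood at 629 and 683 CPM in members, against 235 and 234 CPM in other cells, a ratio of 2.68 (95% exact interval 2.58 to 2.78) in library 1 and 2.92 (2.82 to 3.02) in library 2. Sbsn (suprabasin) stood at 470 and 506 CPM in members, against 225 and 239 CPM in other cells. In both genes the 2 libraries lay far closer to each other than members to other cells, while the keratin genes named above were at 0. The genes are neighbours on the plus strand of mouse chromosome 7 (GRCm38, GENCODE M21), Sbsn at 30751471 to 30756134 and Krtdap at 30787896 to 30791097, with Dmkn (dermokine) between them at 30763756 to 30781063. Dmkn, named here for its position after its values were seen, stood at 20.8 and 30.6 CPM in members, against 9.04 and 11.4 CPM in other cells. The nearest gene before Sbsn to pass the level minimum of 10 CPM, Tmem147, stood at 122 and 123 CPM in members, against 107 and 107 CPM in other cells. Krtdap and Sbsn also varied together among the members themselves, with a correlation over cells of 0.46 in library 1 and 0.35 in library 2, a description of cells that share a library and depth.

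The promoters of Krtdap and Sbsn are shown because these genes are neighbours and both were higher in members, Krtdap with the largest fold and Sbsn with the sixth of the 7 genes named over other cells. Each holds 250 bases before the RefSeq start and 50 after it (GRCm38.p6, plus strand), chr7:30787655-30787954 for Krtdap and chr7:30751221-30751520 for Sbsn. Capitals mark matches to 4 motifs, searched on both strands after the members' values were known. For the TATA box the letters were TATAAA. For AP-1 they were TGANTCA. For TCF/LEF factors they were CTTTGAT. For C/EBP factors they were TTGCNNAA.
Krtdap: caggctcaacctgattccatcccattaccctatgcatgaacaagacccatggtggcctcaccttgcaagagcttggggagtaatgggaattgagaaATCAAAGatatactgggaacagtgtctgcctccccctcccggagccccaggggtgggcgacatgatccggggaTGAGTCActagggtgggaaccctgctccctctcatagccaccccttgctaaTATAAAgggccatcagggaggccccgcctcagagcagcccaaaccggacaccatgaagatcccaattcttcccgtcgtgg
Sbsn: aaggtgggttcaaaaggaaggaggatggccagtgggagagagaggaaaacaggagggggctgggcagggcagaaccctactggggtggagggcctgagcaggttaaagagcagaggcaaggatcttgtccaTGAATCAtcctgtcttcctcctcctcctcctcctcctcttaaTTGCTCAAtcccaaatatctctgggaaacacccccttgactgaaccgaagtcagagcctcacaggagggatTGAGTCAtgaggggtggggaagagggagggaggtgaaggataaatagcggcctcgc
In Krtdap a TATAAA began 30 bases before the start, TGAGTCA 81 bases before it and ATCAAAG, the TCF/LEF letters on the opposite strand, 154 bases before it. In Sbsn, TGAATCA began 119 bases before the start, TTGCTCAA 77 bases before it and TGAGTCA 6 bases before it. Both windows thus hold AP-1 letters, which 7.94% of 27018 RefSeq promoters of this length and 4.61% of the 5101 promoters of genes passing the level minimum also hold. The windows of Igfbp5, Akr1c18, Wnt2, Pi16, Ptgs1, Sema3d and Sema3c were searched too and held no match to any of the motifs. That of Dpp4 held TATAAA only, so the AP-1 letters were not shared by the other leading genes searched. Of the 99 genes higher in members than in other cells, 72 had a promoter in the table, and 6.94% of these held TGANTCA, 9.72% TATAAA, 2.78% CTTTGAT and 12.5% TTGCNNAA. Among promoters of genes passing the level minimum the shares were 6.88% for TATAAA, 2.31% for CTTTGAT and 8.12% for TTGCNNAA. A match to letters is a description of the window and not evidence of binding. Rspo3, Bmp7, Anxa3, Cthrc1, Gap43, Aldh1a3, Tmem100, Car8 and Bmp3 are named without a promoter.

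Over all 6641 genes that passed 10 CPM, 99 (1.49%) were higher and 276 (4.16%) were lower in members than in other cells. Against the committed pole 568 genes (8.55%) were higher and 501 (7.54%) lower, and 98 genes were higher and 269 lower in both comparisons. The median log2 fold of all genes was 0.03 over other cells and 0.09 over the committed pole. The median gap between the libraries' folds was 0.09 and 0.12, below the log2 fold of 0.58 used for a call. Single genes differed by more, by -0.54 for Irs1 and -1.56 for Mbp over other cells, library 2 minus library 1. Members of both libraries were chosen by the same rule on these counts, so the gap does not measure the effect of that choice. The comparisons with other cells and with the committed pole share the members and are not independent of each other. The counts of higher and lower genes given for each list below are to be read beside these shares of all genes.

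Beside Krtdap and Sbsn, the genes with at least 50 CPM that were raised 2-fold over other cells in both libraries were Akr1c18, Igfbp5, Cthrc1, Ptgs1 and Sema3d. Akr1c18, a steroid dehydrogenase that inactivates progesterone, stood at 1616 and 1515 CPM in members, against 634 and 635 CPM in other cells and 183 and 176 CPM in the committed pole. Cthrc1, a secreted collagen-triple-helix protein of matrix-producing fibroblasts, stood at 928 and 852 CPM in members, against 385 and 373 CPM in other cells. Ptgs1, a cyclooxygenase, stood at 50.3 and 52.4 CPM in members, against 20.3 and 24.2 CPM in other cells. All 3 had log2 folds over 1 in each library, with means of 1.30 for Akr1c18, 1.23 for Cthrc1 and 1.18 for Ptgs1.

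Against the committed pole the list of leading genes widened to Gap43, Aldh1a3, Tmem100, Efna5, Lurap1l, Car8, Il18 and Bmp3. Gap43, a protein of neuronal growth cones, stood at 442 and 455 CPM in members, against 62.5 and 71.4 CPM in the committed pole, a log2 fold of 2.73. Against all other cells the Gap43 fold was 0.79, since other cells held 249 and 271 CPM. Tmem100, a small membrane protein, stood at 243 and 258 CPM in members, against 40.3 and 36.5 CPM in the committed pole, a log2 fold of 2.68. Il18, an interleukin made as an inactive precursor, stood at 56.2 and 50.2 CPM in members, against 9.15 and 9.25 CPM in the committed pole. All 8 genes were also higher in members than in the other cells as a whole, with log2 folds between 0.74 for Car8 and 1.09 for Aldh1a3.

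The genes most reduced in members included Cd36, Igfbp7, Steap4 and Prlr. Igfbp7, a secreted IGF-binding and matrix protein, stood at 249 and 238 CPM in members, against 1156 and 1208 CPM in other cells and 2381 and 2503 CPM in the committed pole. Steap4, a metalloreductase, stood at 17.2 and 20.2 CPM in members, against 85.9 and 101 CPM in other cells. Prlr, the prolactin receptor, stood at 6.74 and 6.17 CPM in members, against 101 and 98.4 CPM in the committed pole, a log2 fold of -3.76. Each of these genes was lower in members of both libraries. Sparcl1, Rgs16, Ntrk2, Casp4, Abca8a and Mgp were also lower, with log2 folds over other cells between -2.30 for Sparcl1 and -1.85 for Abca8a.

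Part of this reduction moved with cells of other types. Cldn5, a tight-junction protein of endothelium, had a log2 fold of -2.04 over other cells and -0.12 once the 104 cells with markers of other types were left out. For Gpihbp1, the capillary anchor of lipoprotein lipase, the fold was -1.56 and then -0.04. Hba-a1, an alpha-globin gene, had a fold of -2.84 and then 0.03. Cldn5 is in the endothelial list that picked left-out cells, and Hba-a1 counts in the haemoglobin share that picked others. The change in both genes was thus built into the choice of those cells. Fabp4, a fatty acid carrier of adipocytes and capillaries, had a fold of -2.14 and then -1.31, and Cd36, a fatty acid translocase, had -2.34 and then -1.80. Plvap, an endothelial diaphragm protein, had -1.73 and then -1.67.

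In the Wnt pathway, members were higher in the R-spondin Rspo3 and in the modulators Dact1, Dact2 and Dkk3, and lower in Fzd4, Sfrp1, Sfrp4 and Dkk2. Of 67 listed genes 23 passed the level minimum, and 5 were higher and 4 lower in members than in other cells, with a median log2 fold of 0.22. Against the committed pole 13 were higher and 4 lower, and Wnt2, a gene of the rule, is counted in both. Rspo3, a secreted R-spondin that amplifies Wnt signals, stood at 36.7 and 42.6 CPM in members, against 14.4 and 12.5 CPM in other cells and 6.29 and 4.95 CPM in the committed pole. Its log2 fold over other cells was 1.49. Of the inhibitors that act inside the cell, Dact2 stood at 29.2 and 28.6 CPM in members, against 12.7 and 12.8 CPM in other cells, and Dact1 at 69.7 and 55.9 CPM, against 35.5 and 29.1 CPM. Dkk3, a secreted Dickkopf-family protein, was also higher, with a log2 fold of 0.92.

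The secreted Wnt antagonists did not move as one. Sfrp1 was lower at 22.7 and 28.2 CPM in members, against 50.5 and 58.4 CPM in other cells. Dkk2 was lower with a log2 fold of -0.76, and Sfrp4 with -0.78, though Sfrp4 was not lower than in the committed pole, where its fold was 0.17. Sfrp2 was called in neither direction against other cells, at 842 and 922 CPM in members and 735 and 794 CPM in other cells, and was higher than in the committed pole with a log2 fold of 1.53. Of 8 receptors and co-receptors that passed, Fzd4 was the 1 called against other cells, lower at 18.2 and 14.8 CPM in members, against 36.2 and 32.0 CPM. Fzd7, Fzd1, Fzd2 and Lgr4, a receptor of R-spondins, were higher than in the committed pole, with log2 folds between 0.69 and 1.11. The target gene Myc was lower than in the committed pole with a log2 fold of -0.88, and Ccnd1 was higher with 0.88.

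In BMP and TGF-β signalling 3 of the 8 ligands that passed were higher in members than in other cells, 2 were lower and 3 were not called. Of 54 listed genes 34 passed, and 4 were higher and 6 lower in members than in other cells, with a median log2 fold of -0.01. Bmp7, a gene of the rule, is counted among the ligands and in the list. Without it 2 of 7 ligands and 3 of 33 genes were higher. Bmp4, a ligand known to push precursors toward adipocytes, stood at 37.0 and 34.9 CPM in members, against 17.0 and 15.8 CPM in other cells and 3.00 and 4.17 CPM in the committed pole. Bmp3, known as an antagonist of other BMPs, stood at 65.2 and 71.9 CPM in members, against 34.2 and 35.03 CPM in other cells. Outside the rule, Bmp4 and Bmp3 were thus higher in members, while the rise of Bmp7 was set by the choice of members. Bmp2, at 59.0 and 60.9 CPM against 53.0 and 51.6 CPM in other cells, was not called. Gdf10, a related ligand, was lower with a log2 fold of -1.23, and Tgfb1 was lower with -1.20.

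Extracellular BMP antagonists went both ways. Chrd (chordin) stood at 28.8 and 27.1 CPM in members, against 14.4 and 16.0 CPM in other cells. Chrdl1, a chordin-like protein, stood at 53.8 and 57.9 CPM in members, against 106 and 108 CPM in other cells, and Bmper at 7.74 and 5.09 CPM, against 25.8 and 25.1 CPM. Chrd was higher, and Chrdl1 and Bmper lower, in both libraries. Of 9 receptors that passed, Acvr2a was lower with a log2 fold of -1.05 and the other 8 were called in neither direction against other cells. Tgfbr2 was higher than in the committed pole with a log2 fold of 1.24. Of 6 target genes of these pathways that passed, 1 was lower and none higher than in other cells, with a median log2 fold of -0.40. Against the committed pole 3 were lower and none higher, with a median of -0.64. The targets Id2, Id3 and Id4 had log2 folds of -0.21, -0.27 and -0.67 over other cells and were called in neither direction there.

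Among axon guidance genes, the cues Sema3b, Sema3c, Sema3d and Efna5 were higher in members, and the cues Sema5a and Slit3 and the receptor Nrp1 were lower. Of 40 listed genes 16 passed, and these 4 higher and 3 lower genes were the ones called against other cells. The 11 cues that passed had a median log2 fold of 0.04. Sema3c, a secreted semaphorin, stood at 766 and 708 CPM in members, against 390 and 370 CPM in other cells and 152 and 136 CPM in the committed pole. Sema3d stood at 72.9 and 72.2 CPM in members, against 34.4 and 34.0 CPM in other cells, and Sema3b at 142 and 157 CPM, against 88.6 and 98.7 CPM. Efna5, a membrane-anchored ephrin, stood at 70.5 and 68.7 CPM in members, against 37.3 and 39.9 CPM in other cells. Each of these 4 was higher in both libraries. Nrp1, a co-receptor of class 3 semaphorins and of VEGF, was lower at 46.1 and 50.005 CPM in members, against 115 and 113 CPM in other cells. Plxna1, a signalling partner of neuropilins, was higher than in the committed pole only, with a log2 fold of 1.62. Slit3 and Sema5a had log2 folds of -0.69 and -0.71.

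Of 32 surface proteins, 27 passed, and 2 were higher and 2 lower in members than in other cells. Cd55, a complement-restraining protein, stood at 265 and 280 CPM in members, against 154 and 159 CPM in other cells. Ackr3, an atypical receptor that takes up the chemokine CXCL12, stood at 323 and 326 CPM in members, against 199 and 209 CPM in other cells. Cd9, a tetraspanin, was lower at 78.8 and 70.7 CPM in members, against 203 and 171 CPM in other cells. General precursor markers differed little. Ly6a, which encodes Sca-1, had a log2 fold of 0.05, Thy1 0.16 and Cd34 0.49, and Cd34 was higher than in the committed pole with 1.16. Pdgfra, the receptor often used to define adipocyte precursors, was lower than in the committed pole, at 94.5 and 91.4 CPM in members and 159 and 168 CPM there.

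**Figure D3:**
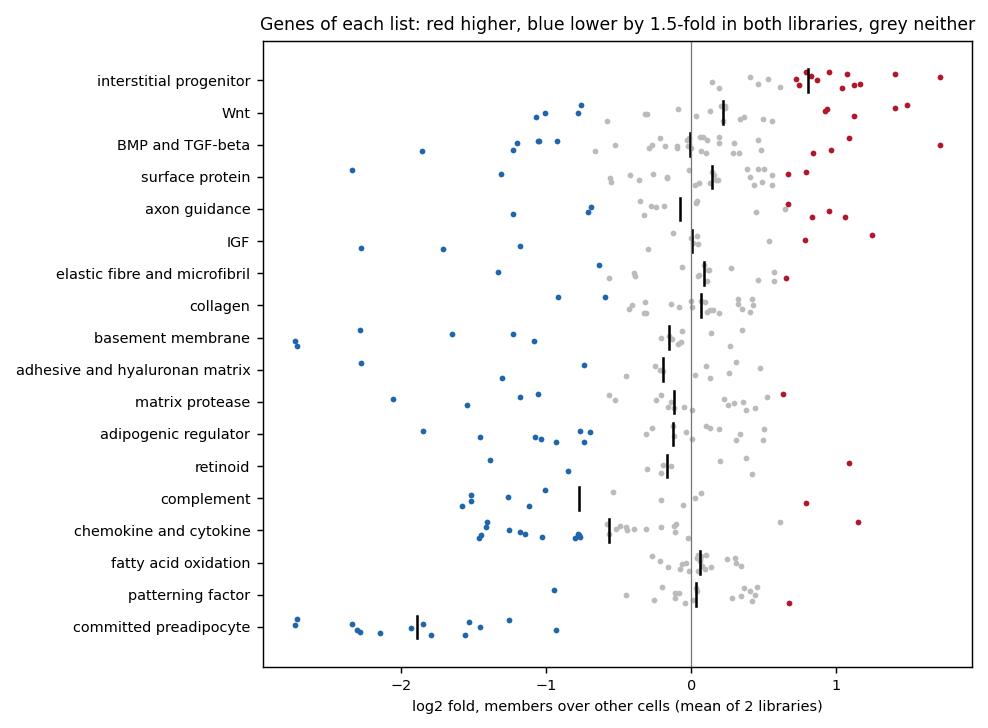
Log2 fold of members over other cells (mean of the libraries) for each gene that passed 10 CPM in 18 lists, with red for higher and blue for lower by 1.5-fold in both libraries and grey for neither. Black bars are list medians. The interstitial list lies to the right and the committed list to the left because the rule drew on both, while the Wnt, BMP and guidance lists hold genes on both sides.

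Among matrix genes, the microfibril gene Mfap5 was higher in members and several basement membrane genes were lower. Of 17 elastic fibre genes that passed, 1 was higher and 2 were lower than in other cells, and 5 were higher and 4 lower than in the committed pole. Mfap5, a microfibril protein, stood at 5281 and 4932 CPM in members, against 3325 and 3151 CPM in other cells. Mfap4, which binds elastin and collagen, was lower at 210 and 128 CPM in members, against 519 and 331 CPM in other cells, and Emilin1 with a log2 fold of -0.64. Emilin2, Efemp1 and Fbn2 were higher than in the committed pole with log2 folds of 1.60, 1.77 and 0.75. Eln, elastin itself, was not called, at 1058 and 778 CPM in members and 1497 and 939 CPM in other cells.

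Among 15 basement membrane genes that passed, none was higher and 6 were lower than in other cells, 3 of them rule genes. The other lower genes were Col18a1, Nid2 and Smoc2, with log2 folds of -1.65, -1.23 and -1.08, while the laminin genes Lama2, Lamb1 and Lamc1 lay between -0.13 and -0.07. Of 23 genes of fibrillar and associated collagens (9), type VI collagen (4) and collagen processing (10) that passed, none was higher than in other cells, and Col12a1 and Col6a3 were lower. Among proteoglycans, Bgn (biglycan) stood at 477 and 338 CPM in members, against 1004 and 755 CPM in other cells, and Dcn (decorin) had a log2 fold of -0.01. Of 21 matrix protease and inhibitor genes that passed, 1 was higher and 4 were lower. Adamts5 was the 1 higher gene, at 457 and 445 CPM in members, against 287 and 293 CPM in other cells. Its relative Adamts4 was lower at 37.2 and 33.7 CPM in members, against 102 and 108 CPM in other cells.

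IGF-binding proteins were unequal in members. Igfbp5 stood at 1283 and 1321 CPM in members, against 546 and 550 CPM in other cells, and Igfbp3 at 386 and 326 CPM, against 199 and 211 CPM. Igfbp4 was lower at 257 and 237 CPM in members, against 585 and 534 CPM in other cells, as was the growth factor Igf1, at 65.3 and 59.9 CPM, against 212 and 202 CPM. Igf2 and the receptor Igf1r had log2 folds of 0.05 and 0.00 and were called in neither direction.

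The retinoid, complement, growth factor and cytokine lists held 1 or no higher gene each. Of all genes that passed, 1.49% were higher and 4.16% lower. Such small counts of higher genes do not set these lists apart from that share. Aldh1a3, which makes retinoic acid from retinal, stood at 188 and 141 CPM in members, against 80.2 and 71.9 CPM in other cells, while the retinol carrier Rbp4 was lower with a log2 fold of -1.39. Of 12 complement genes that passed, 6 were lower, namely C1ra, C1s1, C2, C3, C4b and Vtn, with log2 folds between -1.58 and -1.01, and the restraining gene Cd55 was higher. Of 9 PDGF and FGF genes that passed, Fgf10, a ligand that acts on epithelium and preadipocytes, was lower with -1.26 and no gene was higher. Tnfrsf11b (osteoprotegerin), a decoy receptor, was the 1 higher gene of 27 chemokine, cytokine and receptor genes that passed, at 52.1 and 35.2 CPM in members, against 20.4 and 17.2 CPM in other cells, and 12 were lower. Among these 12, Kitl, Lifr and Osmr had log2 folds of -1.46, -1.41 and -1.15.

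Of 21 regulators of adipogenesis that passed, none was higher and 8 were lower than in other cells, with a median log2 fold of -0.12 over the 21. The 8 comprised 5 of 11 that promote adipogenesis and 3 of 10 that restrain it. Pparg, the master regulator of adipocyte differentiation, stood at 3.50 and 2.54 CPM in members, against 14.2 and 12.6 CPM in other cells and 23.9 and 24.6 CPM in the committed pole. Cebpa, its partner, stood at 6.99 and 6.05 CPM in members, against 13.0 and 13.8 CPM in other cells. Both were low throughout and lower in members than in the other cells as a whole. In 10 equal bins of kept cells by D, Cebpa was lowest on the mean of the libraries in bin 8, which held no members. It stood at 5.26 and 5.14 CPM there and at 6.44 and 5.53 CPM in bin 10, the highest D. Among genes that restrain adipogenesis, Dlk1 and Sox9 were lower than in other cells at log2 folds of -1.46 and -1.08, and Klf2 and Klf3 were higher than in the committed pole at 0.96 and 1.29. Of 19 patterning factors that passed, Osr2 was higher with 0.67 and Meox2 lower with -0.94. The Hox genes Hoxc8, Hoxc6 and Hoxc10 had folds between -0.08 and 0.03.

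No fatty acid oxidation gene of 21 that passed was called in either direction between members and other cells. Of all genes that passed, 1.49% were higher and 4.16% lower. No call among 21 is close to those shares and is not a result about this list. Etfa, a subunit of the electron transfer flavoprotein, had a log2 fold of 0.35 over other cells and was the 1 gene called against the committed pole, higher with 0.68. Among 99 ribosomal protein genes and 12 mitochondrially encoded genes that passed, none was called. Of 11 genes of a quiescence and cell cycle inhibitor list that passed, Gas1 and Gas6 were lower than in other cells with log2 folds of -1.02 and -1.83. Cdkn1c, an imprinted inhibitor of cell division, stood at 574 and 547 CPM in members, against 406 and 418 CPM in other cells and 232 and 214 CPM in the committed pole.

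Sorting all kept cells into 10 equal bins of D showed which genes ended in the members and which had their maximum short of them. Akr1c18 stood between 175 and 180 CPM in bin 1, at 507 and 525 CPM in bin 5 and at 1611 and 1521 CPM in bin 10, and was higher at each of the 9 steps. Sema3c and Sbsn also stepped up 9 times on the mean of the libraries, and Krtdap 8 times. Rspo3 stayed low over the first 5 bins, at 7.25 and 5.75 CPM in bin 5, and reached 36.8 and 42.1 CPM in bin 10. These genes were at their maximum among the members. Gap43 levelled off before them, at 467 and 459 CPM in bin 8 and 450 and 447 CPM in bin 10, and Ptgs2, the inducible cyclooxygenase, stood at 158 and 154 CPM in bin 8 and 114 and 136 CPM in bin 10.

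A further set of genes was highest in the middle of the range. Igf1 stood at 213 and 259 CPM in bin 1, peaked in bin 4 at 281 and 297 CPM and stood at 59.0 and 58.7 CPM in bin 10. Mgp, an inhibitor of calcification, peaked in bin 3 on the mean of the libraries and stood at 12.6 and 10.4 CPM in bin 10. Eln stood at 719 and 602 CPM in bin 1, at 2518 and 1211 CPM in bin 5 and at 1022 and 869 CPM in bin 10, and its peak in library 2 was 1514 CPM in bin 4. Igfbp7 was highest in bin 1, at 2590 and 2719 CPM, and stood at 243 and 240 CPM in bin 10. The order of cells by D used the rule genes, and it is not an order in time.

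**Figure D4:**
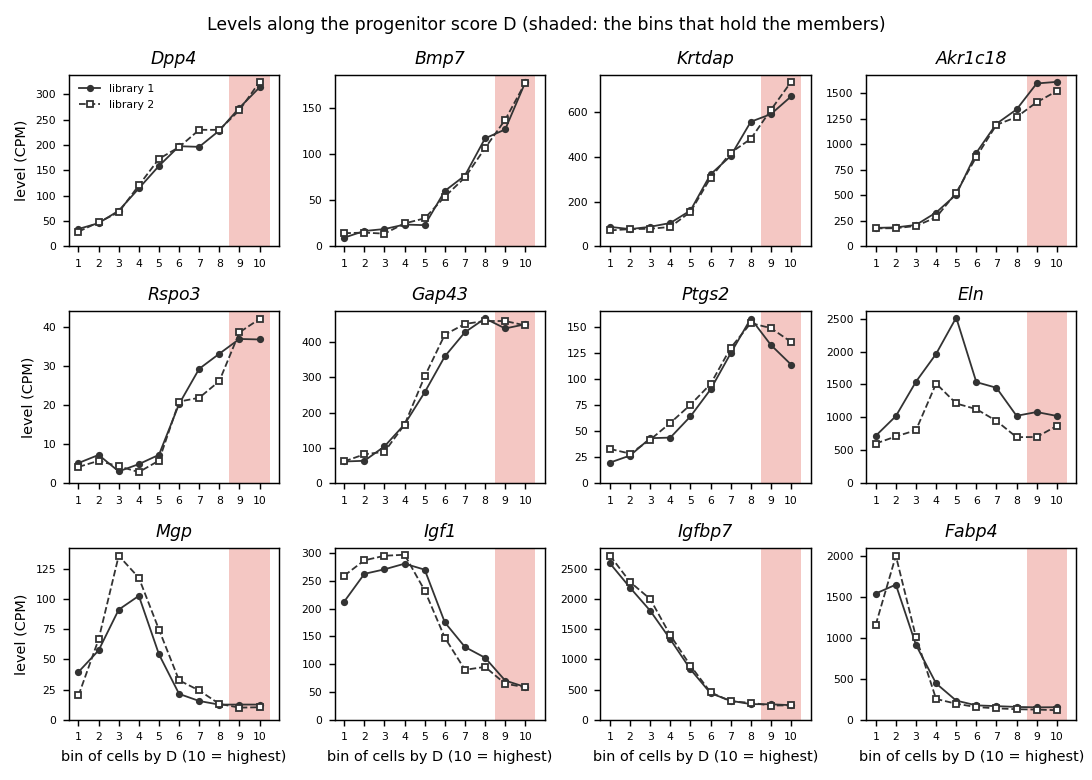
Level (CPM) of 12 genes in 10 equal bins of kept cells by D, with the highest D in bin 10, for library 1 (filled circles, solid line) and library 2 (open squares, dashed line). Bins 9 and 10, shaded, hold the members. Dpp4, Bmp7, Krtdap, Akr1c18 and Rspo3 were highest in the shaded bins, Gap43 levelled off before them, and Eln, Mgp and Igf1 peaked in the middle bins.

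When members above their median D were set over those below it, 2 of 6641 genes (0.0301%) were higher and 3 (0.0452%) lower by 1.5-fold in both libraries. The higher genes were A330069E16Rik and Amotl2, and the lower were Cstf3, Pde4b and Irf8. Each of the 5 stood under 25 CPM in members of both libraries, and they are named as a count of few, after their values were seen. Krtdap, Akr1c18, Igfbp5, Cthrc1, Sbsn and Sema3d had log2 folds between 0.02 and 0.30 in that split. The rule genes Dpp4, Wnt2, Bmp7, Anxa3 and Pi16 themselves had 0.20, 0.29, 0.39, 0.26 and 0.25, so the split spans a narrow range of D.

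Variation was measured as the squared coefficient of variation beyond counting noise, over 2087 genes with a median of 0.06. The markers, whose spread the choice of members limits, had values of 0.02 for Dpp4, -0.01 for Bmp7, 0.07 for Wnt2 and Anxa3 and 0.13 for Pi16. The most variable genes among members were Eln at 5.66, Rgcc at 5.52, Hspa1a at 5.24 and Mfap4 at 4.45, then Cxcl10, Ifi203, Cxcl2, Fgl2, Ptgs2 and Bmp2 between 3.65 and 2.03. Eln was detected in 99.3% and 98.1% of members, yet the top 10% of members held 44.9% and 46.0% of its UMIs. Rgcc, a cell cycle regulator, was detected in 30.6% and 42.4% of members, with 72.0% and 64.3% of its UMIs in the top 10%. Eln and Mfap4 varied together, with correlations over members of 0.37 and 0.47, and Eln and Akr1c18 in opposite ways, with -0.26 and -0.26. Pi16 and Cthrc1 had 0.44 and 0.33, and Krtdap and Igfbp5 0.41 and 0.33.

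Both libraries held cells with Xist and cells with Y-linked transcripts, which gave 4 groups of cells in which the comparison could be repeated. Xist-positive cells (at least 4 Xist UMIs and none from Y-linked genes) included 253 members in library 1 and 260 in library 2, and Y-positive cells included 157 and 200. Members made up 18.6% of Xist-positive and 19.7% of Y-positive cells in library 1, and 18.3% and 19.6% in library 2, with intervals that overlap. Across these groups the log2 fold over other cells lay between 1.39 and 1.53 for Krtdap, 1.25 and 1.46 for Akr1c18, 1.19 and 1.398 for Igfbp5, 1.14 and 1.31 for Cthrc1, and 0.89 and 1.24 for Sbsn. For Igfbp7 it lay between -2.41 and -2.26. Hba-a1 ran between -1.84 and 0.48 and had no common sign.

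**Figure D5:**
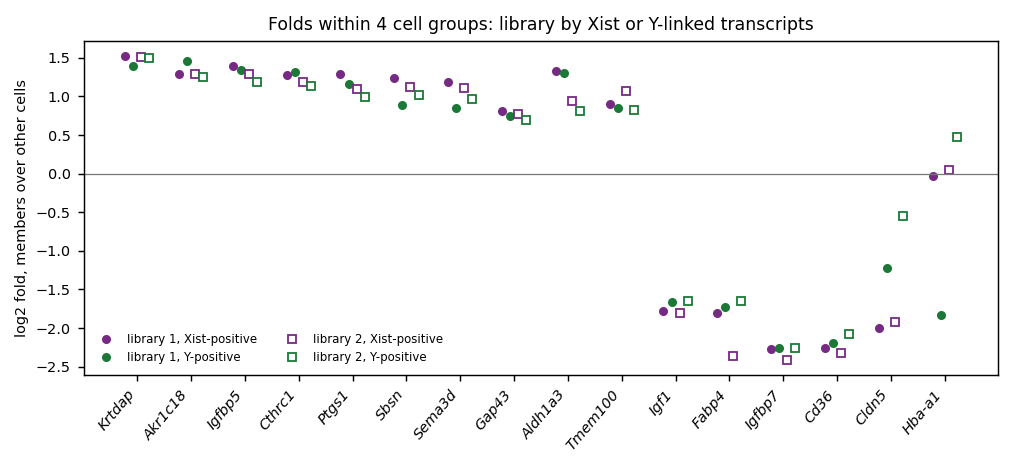
Log2 fold of members over other cells for 16 genes in 4 groups of cells, by library (circles for library 1, squares for library 2) and by Xist (purple) or Y-linked (green) transcripts. Genes at the left are above 0 and those from Igf1 to Cldn5 below 0 in every group, while Hba-a1 falls on both sides.

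Between the libraries, members differed in few genes. Set as library 2 over library 1, 23 of 6641 genes (0.346%) were higher and 24 (0.361%) lower by 1.5-fold among members, and the milk and every other difference between the samples cannot be told apart. Rgcc stood at 98.1 CPM in members of library 2 and 56.6 CPM in members of library 1, and Ccl11, a chemokine that attracts eosinophils, at 180 CPM in library 2 and 110 CPM in library 1. Angptl4, an inhibitor of lipoprotein lipase, stood at 36.4 CPM in members of library 2 and 70.8 CPM in members of library 1, and Mfap4 at 128 CPM in library 2 and 210 CPM in library 1. The other cells moved the same way, with log2 folds of 0.53 for Rgcc, 0.48 for Ccl11, -0.48 for Angptl4 and -0.65 for Mfap4. Of the 23 genes higher in library 2 among members, 8 were also called in other cells, which is 34.8% of the members' list and 53.3% of the 15 in the other cells' list. Of the 24 lower, 8 were shared, which is 33.3% of the members' list and 66.7% of the 12 in the other cells' list. Hbb-bs, a beta-globin gene, stood at 8.84 CPM in members of library 2 and 473 CPM in members of library 1, where members carried a median of 11 haemoglobin UMIs.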

How the data were processed

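Single-cell RNA was captured with 10x Genomics 3' V2 chemistry, per the labels' protocols. UMI counts of the deposited matrix are whole numbers for 27998 genes in 6905 barcodes, and the submitters' processing notes name Cell Ranger, Seurat 3.0.1 and mm10 with no order or parameters. There were 0 further columns of per-sample values.

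Cells were kept at 500 genes or more, 10% mitochondrial UMIs or less and fewer than 2 UMIs of Mki67 plus Top2a, which left out 215 cycling cells. D used log1p of UMIs per 10000. Counts were summed per library and class, scaled to CPM by total UMIs and compared as log2(CPM + 1) for genes at 10 CPM or more over all kept cells. Genes passed the call at 1.5-fold in both libraries. Ratios carry conditional exact and shares Clopper-Pearson 95% intervals. No count model was fitted. No doublet caller was run, and leaving out cells above the 95th percentile of UMIs was an alternative.

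Named genes were the rule genes, members of 38 marker and pathway lists (699 genes, 5 not found), up to 15 genes per direction and comparison at 50 CPM and 2-fold, and the 10 most variable genes. Further list genes were named after their values were seen. The members and lists were chosen with earlier results of these data known. The thresholds for cells with markers of other types (10 UMIs of a list, or 20% haemoglobin) and the motifs were set after the data were seen.

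Python 3.11.15, numpy 2.4.6, scipy 1.17.1 and pandas 2.3.3 were used, with edgeR 4.0.16 (TMM) and DESeq2 1.42.0 (size factors) as alternative scalings only. The comparison was tested on simulated data. Promoters came from RefSeq (GRCm38.p6) and gene positions from GENCODE M21.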

Additional observations from a re-analysis of the deposited data

Results flagged for a closer look

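Some of the cells left out of the choice lay at the progenitor end. Of 215 cycling cells, 40 (18.6%, 13.6 to 24.5%) reached the D of the members, 30 of 128 (23.4%) in library 2 and 10 of 87 (11.49%) in library 1. Of kept cells, 21.0% in library 2 and 18.9% in library 1 lay above the same line. These shares are inside the cycling cells' intervals of 16.4 to 31.7% and 5.65 to 20.1%. Of the top 20% of D, 87 of 724 cells (12.0%, 9.74 to 14.6%) in library 2 and 12 of 610 (1.97%, 1.02 to 3.41%) in library 1 were left out for high Smpd3, Daglb, Gas7 and Adm. Among all kept cells, 11.8% in library 2 and 3.98% in library 1 were high in that score. The library 2 share was thus near that of its kept cells, and the library 1 share was below it. In library 2 these left-out cells held 275 CPM of Dpp4, 603 CPM of Krtdap and 617 CPM of Smpd3, and members held 300, 683 and 73.1 CPM.

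The fold of members over other cells took opposite signs in the libraries for 3 listed genes, and the difference was not tested. For Irs1 the log2 fold was -0.26 in library 2 and 0.28 in library 1, a difference of -0.54. For Daglb it was -0.40 in library 2 and 0.19 in library 1, a difference of -0.59. Daglb is part of the score that left cells out, so its fold is set in part by the choice of members, and with those cells kept its mean fold was 0.29. For Mbp it was -0.50 in library 2 and 1.07 in library 1, a difference of -1.56, at levels of 12.6 CPM in members of library 2 and 10.99 CPM in members of library 1.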

How the results depend on the processing

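The share of members moved by construction when D was cut at the top 10% (9.59% in library 2, 9.13% in library 1) or the top 30% (26.9% and 28.2%), and rose to 21.0% in library 2 when Smpd3-high cells were kept. At a level minimum of 50 CPM, 43 genes were higher and 95 lower than in other cells and 216 higher and 196 lower than in the committed pole; with no minimum the counts were 218, 681, 1015 and 1273, since other numbers of genes were counted. The other 72 of 80 recomputed counts stayed within 1.5 times. TMM scaling gave 470 higher and 567 lower than the committed pole, or 45.3% higher, against 53.1% in the counts above, and DESeq2 size factors gave 476 and 563. Of 2304 recomputed gene folds, 1600 stayed within the libraries' spread, 696 moved beyond it and 8 called folds reversed, all of haemoglobin genes. Folds that were not called also changed sign, those of Smpd3, Daglb, Mki67, Top2a and Rgcc, the last over the committed pole in 9 settings, between -0.48 and 1.01. Without cells carrying markers of other types, Hba-a1 gave 0.0276 over other cells and 0.0921 over the committed pole and Hbb-bt 0.0608 over the committed pole. In Xist-positive cells alone, Hba-a1 gave 0.0056 and Hbb-bt 0.0111 over other cells, and Hbb-bt 0.39 over the committed pole. In Y-positive cells alone Hba-a1 gave 0.0322 over the committed pole, and at the top 10% of D Hbb-bt gave 0.14 there. In the first of these settings some of the left-out cells were picked by their haemoglobin share. The cause was not tested in any of them. Of 25 list medians past 1.5-fold, 5 changed sign under some alternative, those of mural, F3-type and lymphatic lists, which rest on 1 to 6 genes. No paired analysis was possible because each condition is 1 library. Genes near 10 CPM are limited by depth.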
